A study of Arabidopsis thaliana with 6 samples.

Results

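The 8 genes described here encode sugar carriers of the plasma membrane and the vacuole in *Arabidopsis thaliana*. These are the sucrose carriers *SUC1*, *SUC2*, *SUC3*, *SUC4* and *SUC5* and the hexose carriers *STP1*, *STP4* and *STP13*. They were taken by locus, and 12 of the 43603 probes of the array belonged to them, out of 25410 genes with a matched probe. *SUC1* was chosen by its SL/SS ratio on these same arrays, by which the study had listed it, and the other 7 genes were added as its relatives with that result known. The SL and SS values of the 8 genes are therefore given as a description. Their probes were part of the fits across all probes, but no call or p of that contrast is given for them.

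Guard cell protoplasts (GCPs), which are guard cells freed of their walls by enzymes, were isolated from rosette leaves of the glabrous *gl1* line in the Columbia background. SL plants had grown for 3 weeks under a short day and then for 2 weeks under a long day of 16 h (light of 41 µmol per square metre per second), and SS plants for all 5 weeks under a short day of 8 h (light of 100 in the same unit). Light intensity thus changed together with day length, and the effects of both cannot be told apart. Sources differ on when the protoplasts were made. The sample labels name ZT16 for SL and ZT8 for SS, and the paper's methods name ZT16 for both groups. By the labels, time of day differed between the groups as well. At ZT16 for both, SS plants would have been in their dark phase and SL plants at the end of their light phase. Either way, this difference cannot be told apart from those of day length and light intensity. RNA of 3 SL and 3 SS samples was hybridized in a single colour to 6 Agilent oligo arrays, and replicates 1 to 3 each stood for an independent batch of plants.

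Guard cells build up potassium salts and sugars to draw in water and open the pore, and part of the sugar is taken up from the cell wall space. SUC proteins carry sucrose together with a proton, and STP proteins carry glucose and other hexoses in the same way. Those at the plasma membrane thus depend on the proton gradient made by the H+-ATPases of that membrane. Cell wall invertases split sucrose outside the cell into the hexoses that STP proteins take up. SWEET proteins, in contrast, let sugars pass in either direction without protons. In leaves, SUC2 of the companion cells is known for loading sucrose into the phloem.

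Each array had between 65.3% and 70.7% of its probes well above background, fewest in SL replicate 2, and 0 spots were saturated. Values below are signals after background correction and quantile normalization over the 6 arrays, in arbitrary units, and 28852 probes, each well above background in all 3 replicates of SL, of SS or of both, were tested. All 12 guard cell markers were well above background on all 6 arrays. The summed signal of these markers was 129341 to 188304 in SL and 133366 to 242811 in SS. Markers of mesophyll summed to 59568 to 114283 in SL and 116626 to 222807 in SS, and those of phloem to 3812 to 4664 in SL and 5538 to 6721 in SS. The mesophyll sum does not stand for each marker of that list, as 2 of them were higher in SL in all 3 pairs. In bulk samples, a smaller number of cells of a type and less RNA of its markers per cell cannot be told apart.

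Of the 12 probes, 10 probes of 7 genes passed the filter. The remaining 2 were the only probe of *SUC5* and the dimmest probe of *SUC2*. As the signal of a probe depends on its sequence, signals are compared here between arrays and not between genes.

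**Figure D1:**
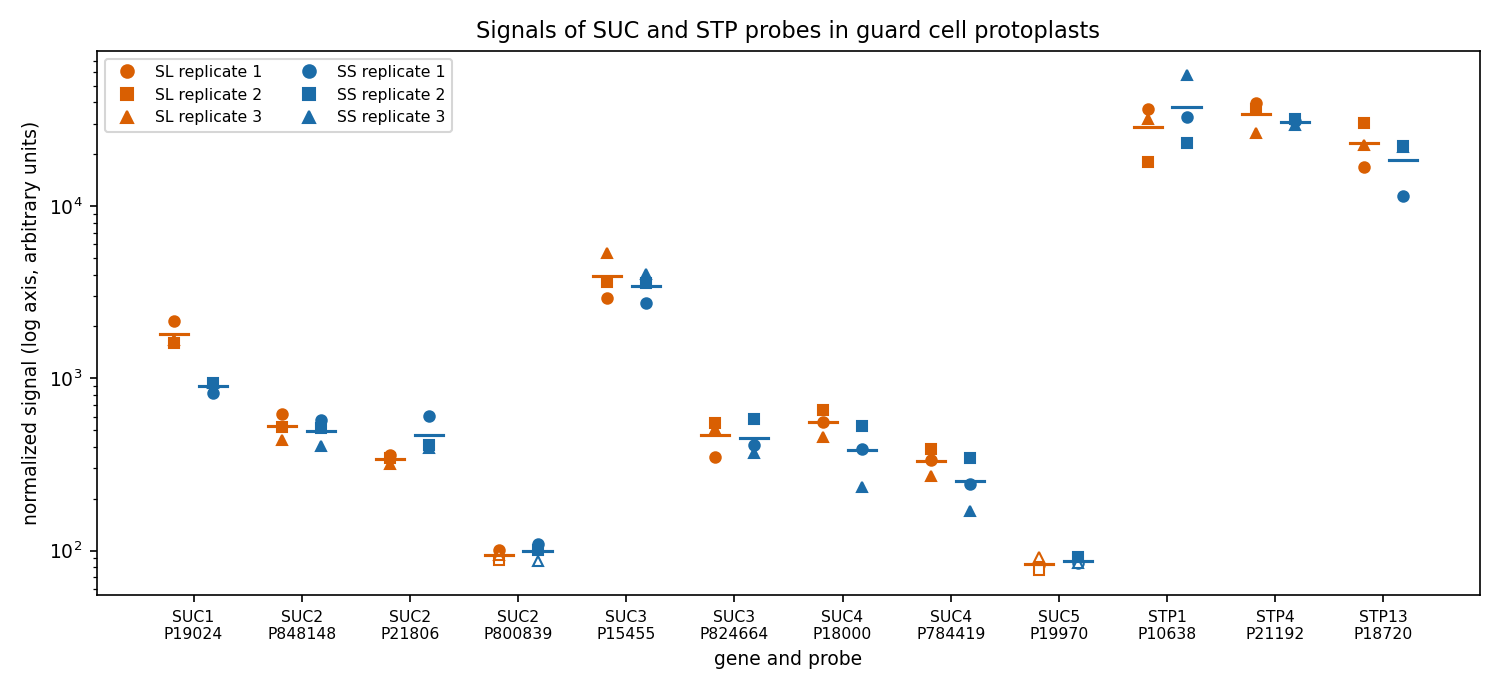
Normalized signal (log axis, arbitrary units) of each of the 12 SUC and STP probes on the 3 SL arrays (orange, left) and the 3 SS arrays (blue, right), with a bar at the mean and open symbols where a spot was not well above background. The SL arrays of *SUC1* all lie above its SS arrays, *SUC5* stays between 76.9 and 91.5 in both groups, and the probes of *STP1*, *STP4* and *STP13* are the brightest.

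*SUC1* (AT1G71880), a high-affinity sucrose carrier of the plasma membrane best known from pollen and roots, had the largest difference of the group. Its signal was 2149, 1600 and 1676 in SL replicates 1 to 3 and 820, 934 and 936 in SS replicates 1 to 3. The lowest SL array was thus well above the highest SS array. The signal averaged 1808 ± 297 in SL and 897 ± 66.7 in SS (SD, n = 3 each). Replicate 1, whose arrays lay on a slide of their own, gave an SL/SS ratio of 2.62, and replicates 2 and 3 on the other slide gave 1.71 and 1.79. The ratio averaged 2.04 ± 0.503 (SD, n = 3 pairs), just past the 2-fold limit by which the study had listed the gene, and the next gene of the group, *SUC4*, averaged 1.54. On the log2 scale the SL minus SS difference of *SUC1* was 1.00 (SE 0.158 from limma without a replicate block). This was rank 31 from the top among the 28852 probes. As *SUC1* was chosen by this same contrast, nothing is read from the rank or from its place in the group. The difference lay between 0.81 and 1.12 over all settings tried, and it was lowest without the pair of replicate 1.

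*SUC5* (AT1G71890), a sucrose carrier known from the endosperm of seeds, is the gene next to *SUC1* on chromosome 1 in the RefSeq table, and both proteins are close relatives, so that their transcripts could bind each other's probes. Its probe had a signal of 82.5, 76.9 and 91.5 in SL and 84.9, 91.5 and 84.8 in SS. It was well above background on 1 of the 6 arrays, SS replicate 2, and the groups overlapped. The median pixel intensity of its spots was between 53.5 and 84, against a 95th percentile of the negative control spots between 51.4 and 73 on the same arrays. Compared within each array, only SL replicate 2 had an intensity (61) under that percentile (69). By a less strict flag of the scanner files, the probe was above background on 4 of the 6 arrays. No fold change is given for *SUC5*. The higher *SUC1* signal in SL was not seen at the *SUC5* probe. A contribution of *SUC5* RNA to the *SUC1* probe was not tested, since no probe sequences were used here.

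*SUC2* (AT1G22710), the phloem loader, was represented by 3 probes that did not give one picture. The brightest (A_84_P848148) had 622, 523 and 436 in SL and 570, 513 and 405 in SS. These values overlapped almost entirely, with a mean SL/SS ratio of 1.06 ± 0.0382 (SD, n = 3 pairs). The second probe (A_84_P21806) had 360, 344 and 317 in SL and 601, 411 and 395 in SS. Here each SL array lay below each SS array, and the ratio was 0.746 ± 0.128 (SD, n = 3 pairs). The log2 difference was larger at the first than at the second probe in all 3 pairs, by 0.87, 0.28 and 0.42. The dimmest probe (A_84_P800839) was well above background on 3 of 6 arrays, with signals between 87.3 and 109.

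Markers of phloem and of mesophyll were mostly on the same side as the second *SUC2* probe. That side was not particular to them. The median log2 difference was -0.29 for the 4 epidermis markers and -0.11 for the 12 guard cell markers. Of the 11 phloem marker genes, 10 were tested. In all 3 pairs, 7 of the 10 were lower in SL (23.6% of all probes) and 0 were higher (23.1% of all probes). The median log2 difference of the 10 was -0.24, against 0.01 over all probes. The tested marker with a positive log2 difference was *OPS* (0.22), a gene of sieve element formation. *SULTR1;3*, a sulfate carrier of companion cells, was not well above background on any array. In limma with the replicate number blocked and with Benjamini-Hochberg adjustment, 3 of the 10 fell in SL (3.13% of all probes were called lower), namely *SEOR2* (log2 difference -0.89, adjusted p = 0.0140) and *SEOR1* (-0.60, adjusted p = 0.0415), both of which encode filament proteins of sieve elements, and *AHA3* (-0.55, adjusted p = 0.0397), a companion cell H+-ATPase. Without the block 0 were called, and with it 0 were called once the pair of replicate 1 or that of replicate 2 was left out, or with normexp scaled to the 75th percentile. With the processed signal or the series matrix values 1 was called. Over the 8 other settings with the block, *AHA3* and *SEOR1* were each called in 3 and *SEOR2* in 5.

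Of 11 mesophyll markers, 9 were lower (23.6% of all probes) and 2 were higher (23.1% of all probes) in SL in all 3 pairs. The 9 lower ones were the *RBCS*, *RCA* and *LHCB* genes of the list, and the 2 higher ones were *CA1* (log2 difference 0.35) and *GLDP1* (0.25). The median log2 difference of the 11 was -0.82. With the block limma called 8 of the 11 lower and 0 higher, and without it 0. Over the other settings with the block, the number called was between 0, without the pair of replicate 2, and 8. The part of phloem and mesophyll RNA in the *SUC2* values was not tested.

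*SUC3* (AT2G02860, also *SUT2*), a sucrose carrier of low affinity, differed little between the groups. Its brighter probe (A_84_P15455) had 2929, 3604 and 5312 in SL and 2748, 3581 and 4035 in SS, with a ratio of 1.13 ± 0.165 (SD, n = 3 pairs). Its second probe (A_84_P824664) had a ratio of 1.06 ± 0.277 (SD, n = 3 pairs) and was higher in SL in 1 of 3 pairs. At both probes the groups overlapped, and the sign of the difference turned when single arrays were left out.

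*SUC4* (AT1G09960, also *SUT4*), which releases sucrose from the vacuole, was higher in SL in all 3 pairs at both of its probes. The brighter probe (A_84_P18000) had 557, 657 and 454 in SL and 388, 527 and 234 in SS, and the second (A_84_P784419) had 337, 388 and 271 in SL and 244, 344 and 169 in SS. In both groups replicate 2 was highest and replicate 3 lowest, and the groups overlapped. The mean ratios were 1.54 ± 0.359 and 1.37 ± 0.237 (SD, n = 3 pairs each). Without SS replicate 3 the log2 difference of the brighter probe was 0.28, against 0.60 with all arrays.

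*STP1* (AT1G11260), the main glucose carrier of guard cells and seedlings, gave one of the brightest probes of the array, at percentile 98.9 to 99.8 of all probes. Its signal was 36390, 17930 and 31897 in SL and 32992, 23181 and 57315 in SS. SL was higher in the pair of replicate 1 and lower in the other two, with ratios of 0.773 in replicate 2 and 0.557 in replicate 3, so the groups overlapped and the direction differed between pairs. The mean log2 difference of -0.36 (SE 0.398 from limma without the replicate block) became -0.01 without SS replicate 3. The array with the highest *STP1* signal, SS replicate 3, also had the highest sum of guard cell markers, and both replicate 2 arrays had the lowest. This was not particular to guard cell markers. Epidermis markers had the same highest and lowest arrays. The sum of mesophyll markers was also highest in SS replicate 3 and lowest in SL replicate 2. The part of the mix of cell types in the *STP1* values was not tested.

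*STP4* (AT3G19930), a hexose carrier known from sink tissues and wounded leaves that also serves guard cells, had a signal of 39916, 36391 and 26715 in SL and 31149, 32217 and 29446 in SS. SL was higher in 2 of 3 pairs, with a mean ratio of 1.11 ± 0.188 (SD, n = 3 pairs). *STP13* (AT5G26340), a high-affinity hexose carrier known from pathogen defence, had 16793, 30436 and 22764 in SL and 11407, 22200 and 22022 in SS. It was higher in SL in all 3 pairs with ratios of 1.47, 1.37 and 1.03, but its groups overlapped. Its log2 difference was 0.35 with all arrays and 0.04 without SS replicate 1. Both probes lay above percentile 98 of all probes on each array. The 7 genes of a wounding and stress list, all well above background on all 6 arrays, summed to 201151 to 245304 in SL and 185543 to 213453 in SS. Of these 2 were higher (23.1% of all probes) and 1 was lower (23.6% of all probes) in SL in all 3 pairs. With or without the block, 0 of the 7 were called. The part of the isolation procedure in the *STP4* and *STP13* signals was not tested.

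**Figure D2:**
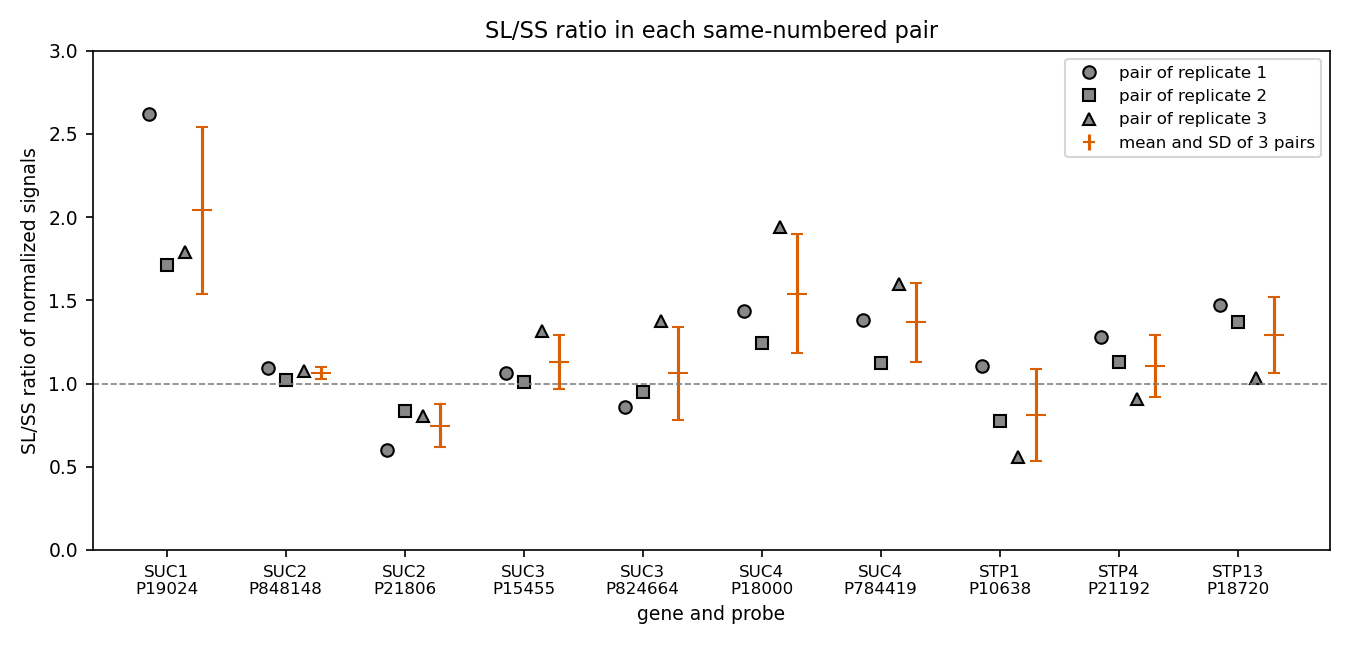
SL/SS ratio of normalized signals for the 10 SUC and STP probes that passed the filter, with a symbol for each same-numbered pair and the mean with SD over 3 pairs in orange, the dashed line marking equal signals. *SUC1* lies between 1.71 and 2.62 in its pairs, whereas *STP1* has pairs on both sides of the line and the *SUC2* probes lie on opposite sides of it.

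Counted by the brightest probe, 5 of the 7 genes that passed the filter (*SUC1*, *SUC2*, *SUC3*, *SUC4* and *STP13*) were higher in SL in all 3 pairs and 0 were lower in all 3. The count depends on that choice of probe. The second *SUC2* probe was lower in SL in all 3 pairs with groups that did not overlap, and the second *SUC3* probe was higher in 1 of 3. Over the brightest probes of all 17997 genes tested, 24.6% were higher and 24.4% were lower in all 3 pairs. Over all probes, 23.1% were higher and 23.6% were lower in all 3 pairs. The median log2 difference of the 7 genes was 0.17. The groups did not overlap for 1 of the 7 genes, *SUC1*, with SL above SS. Over all probes this was so for 8.76%, with SL above SS at 4.02% and below SS at 4.73%. These counts rest on the contrast for which *SUC1* was listed, so nothing is read from them.

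Variation between the plant batches is a measure independent of the SL/SS contrast because each batch held both groups. The replicate number, tested with limma in a fit that also held the group, had an adjusted p under 0.05 for 6 of the 10 probes (60%) and for 43.5% of all probes. Both *SUC4* probes are among the 6, and nothing particular to these genes is read from the count. *STP13* had the smallest adjusted p (0.0102, F = 21.3), with a mean signal of 13841 in batch 1, 25994 in batch 2 and 22390 in batch 3. *STP1* ran the other way, being lowest in batch 2, with means of 34650, 20387 and 42758 (adjusted p = 0.0236 from limma).

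Among the sucrose carriers, both *SUC4* probes (adjusted p of 0.0199 and 0.0173 from limma) were highest in batch 2 and lowest in batch 3. The brighter *SUC3* probe (adjusted p = 0.0163 from limma) was highest in batch 3, and the brightest *SUC2* probe (adjusted p = 0.0212 from limma) in batch 1. *SUC1* varied least, by 1.09-fold between its highest and lowest batch (adjusted p = 0.812 from limma), and *STP4* by 1.26-fold (adjusted p = 0.165 from limma). At the second probes of *SUC2* and *SUC3* the adjusted p from limma was 0.120 and 0.0803. Batch 1 was on a slide of its own, so for this batch plants and slide cannot be told apart, whereas batches 2 and 3 shared a slide. Protoplast isolation, labelling and hybridization may also have differed between replicate numbers, and their part in the replicate term was not tested. With the same background correction but scaling to the 75th percentile in place of quantile normalization, the replicate term was called at 2 of the 10 probes, those of *STP1* and *STP13*.

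**Figure D3:**
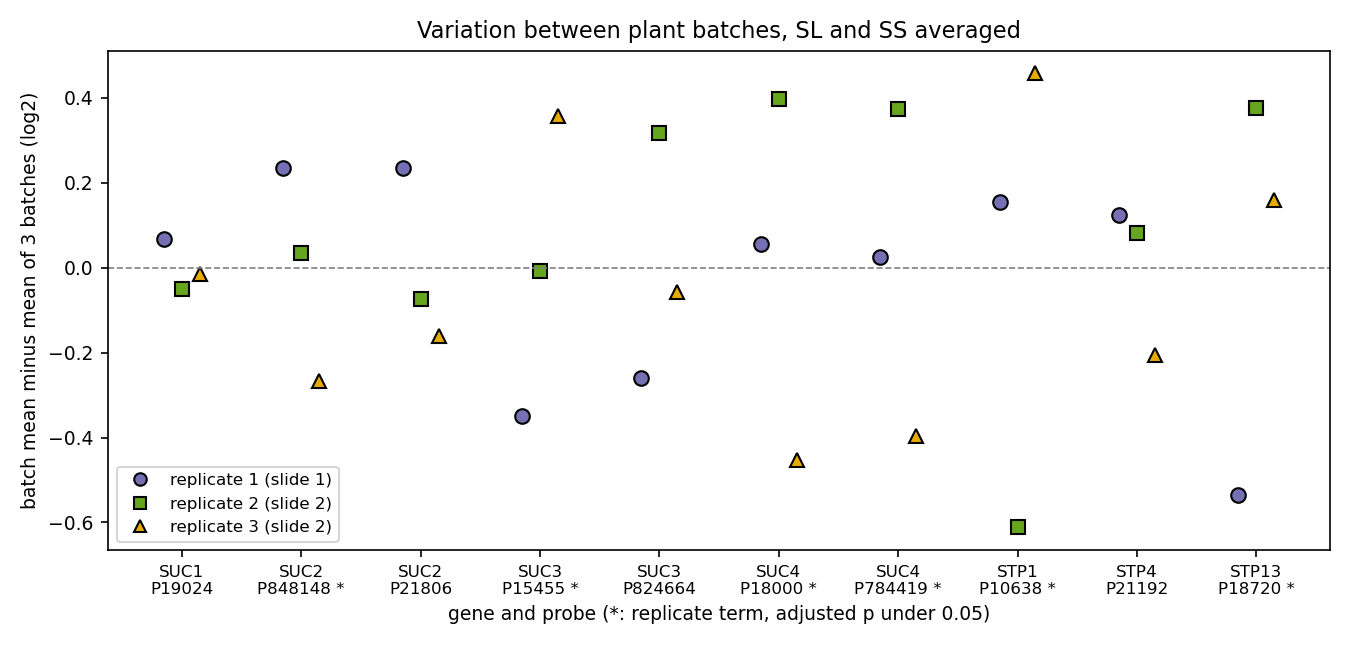
Mean log2 signal of each plant batch (SL and SS averaged) minus the mean of the 3 batches for the 10 tested SUC and STP probes, with a star where the replicate term had an adjusted p under 0.05 in limma. The *SUC1* points lie close together, those of *SUC4* have batch 3 lowest, and those of *STP1* and *STP13* put batch 2 at opposite ends.

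Other genes of sugar transport and use were followed in 5 lists of 64 genes in all, of which 39 were tested. With the replicate block, limma called 2 of these 39 (5.13%, against 4.44% of all probes), 1 higher in SL (1.32% of all probes) and 1 lower (3.13% of all probes). Without the block it called 0 of the 39 and 0 of all probes (0%), with 1185 of all probes at an unadjusted p under 0.05. Their median log2 difference was 0.17.

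*SWEET11*, a sucrose exporter that hands sucrose to the phloem loading step, fell in SL. Its signal was 2025, 1054 and 1002 in SL and 4712, 2646 and 2705 in SS, so that each SL array lay below each SS array, with ratios of 0.430, 0.398 and 0.371. The log2 difference was -1.33 with an adjusted p of 0.00523 from limma with the block, and it lay between -1.43 and -1.27 in the other 8 settings with the block. Its partner *SWEET12* had a log2 difference of -0.42 and did not pass (adjusted p = 0.0636 from limma with the block). *SWEET11* thus lay on the same side as most phloem and mesophyll markers and as the second *SUC2* probe. The medians of the epidermis and guard cell markers were on that side as well. The part of phloem and mesophyll RNA in the *SWEET11* values was not tested. *SWEET11* lost the call without the pair of replicate 2 (adjusted p = 0.113 from limma with the block). Of the 17 SWEET genes, 7 were tested and 8 were not well above background on any array.

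*SUC7*, a relative of *SUC1* that is known to encode an aberrant protein, was the gene called higher, with 589, 683 and 478 in SL and 328, 487 and 348 in SS. The groups overlapped, and the log2 difference was 0.60 (adjusted p = 0.0403 from limma with the block). It passed in 2 of the 8 other settings with the block, where its adjusted p from limma lay between 0.0233 and 0.189. The call was lost without the pair of replicate 1 (0.146) or that of replicate 2 (0.189). Its probe may also bind RNA of related SUC genes, which was not tested. The other 3 genes of that list, *SUC6*, *SUC8* and *SUC9*, were not well above background on any array.

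Among the other 11 STP genes, 4 were tested and 0 were called. *STP12* was nearest, with a log2 difference of 0.48 and groups that did not overlap (adjusted p = 0.0699 from limma with the block). Of the vacuolar and plastid carriers, 0 of 7 tested were called, with a median of 0.27. Of the genes that split, make or phosphorylate sucrose and hexoses, 0 of 20 tested were called, with a median of 0.19. In all 3 pairs, 9 of the 20 were higher in SL (23.1% of all probes) and 4 were lower (23.6% of all probes). The cell wall invertase gene *CWINV1*, whose product supplies hexoses outside the cell, had a log2 difference of -0.39 (adjusted p = 0.0636 from limma with the block). The vacuolar invertase gene *BFRUCT4* had one of 0.52 (adjusted p = 0.262 from limma with the block). Sucrose synthase 3 (*SUS3*), the brightest probe of that list, had a signal of 18809 ± 6238 in SL and 15620 ± 7636 in SS (SD, n = 3 each).

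**Figure D4:**
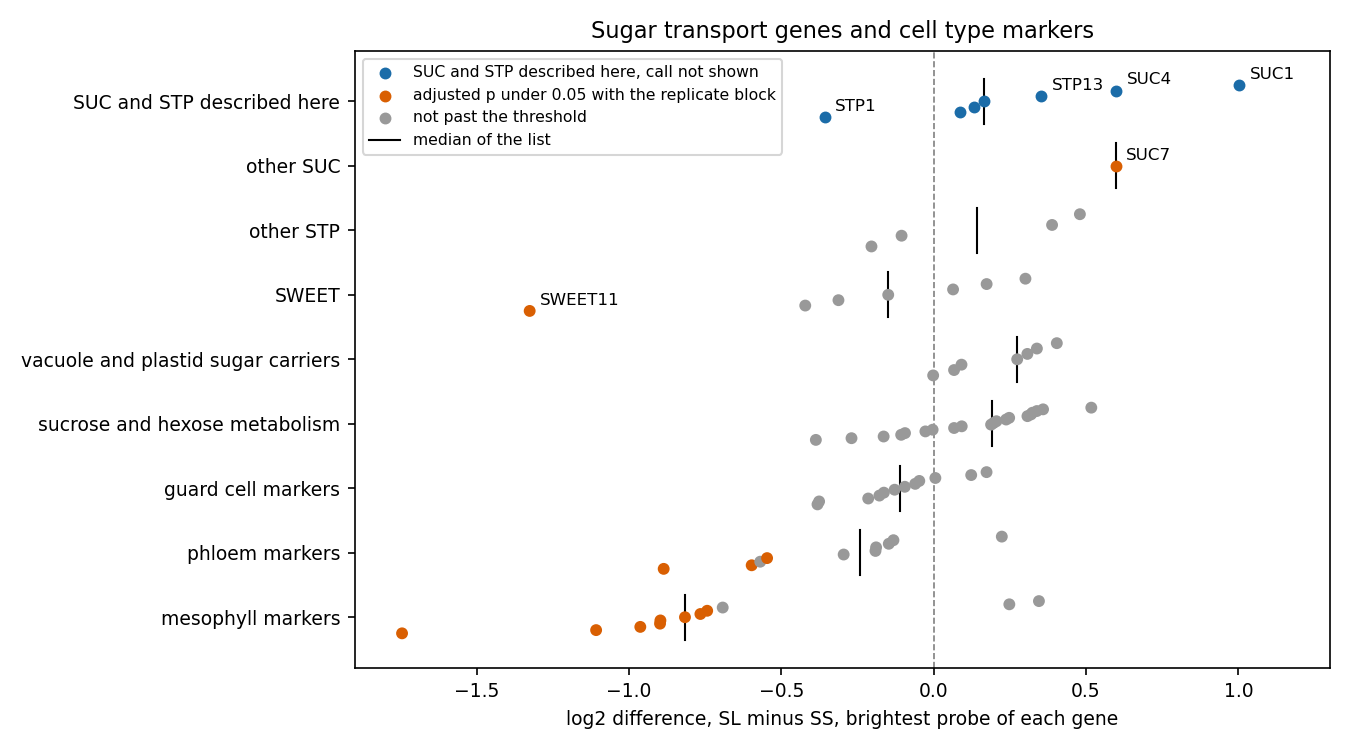
Log2 difference (SL minus SS) at the brightest probe of each tested gene, by list, with the median of each list as a black line and orange points where limma with the replicate block gave an adjusted p under 0.05. The SUC and STP genes described here are blue, with no call shown, *SUC7* and *SWEET11* are the 2 orange points among the other sugar genes, and the orange points of the marker lists all lie below 0.

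The genes most like *SUC1* over the 6 arrays, by Pearson correlation of log2 signals at the brightest probe of each gene, were AT4G14490 (r = 0.997), *EIN4* (an ethylene receptor gene, r = 0.987), AT3G55060 (r = 0.979), *PAB7* (a poly(A) binding protein gene, r = 0.979) and AT5G55150 (r = 0.979). The points are 6 arrays of 2 groups and 3 batches, so that any gene with a steady difference between the groups gives a high value, and the correlation is only a description. The log2 differences of these 5 genes were between 0.15 and 0.34, well under that of *SUC1*.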

How the data were processed

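Spots had been quantified by the authors in Feature Extraction 11.5.1.1 (Agilent). Per the file headers, the deposited columns hold the intensity as the median pixel intensity of a spot, that of its local background, and a background-subtracted processed intensity, none normalized between arrays. The series matrix holds the same processed intensity. The paper names limma for normalization without stating the function used. Here, median intensities were corrected by normexp with an offset of 50, control and outlier spots were removed, and log2 values were quantile normalized over 6 arrays and averaged by probe (R 4.3.3, limma 3.58.1). Quantile normalization fixes the overall distribution of signals, so only changes relative to other probes are seen. Of 43603 probes, 34348 were matched to a gene through accessions and a RefSeq table. The builds differ (TAIR10 in the array files, TAIR10.1 in that table), which is why positions are left out. Where a gene had more than 1 probe the brightest stands for it, and all probes of the 8 genes are shown.

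SL and SS were compared with limma without a block and, as the alternative, with the replicate number as a block. Benjamini-Hochberg adjustment ran over all probes kept. The description of the series gives a separate plant batch for each experiment, so the replicate numbers pair the samples. Across probes, the deviations from the group mean had a correlation of 0.710, 0.855 and 0.739 in the pairs 1 to 3. The replicate term was tested by an F-test in the same fit. The fits were checked on simulated data in which few probes carried a replicate effect. That check does not cover a series whose replicate term is called at many probes. Named genes were all 8 members, the called genes of the sugar lists (at most 4 per list), and the 5 genes most like *SUC1*. A few other sugar genes (*SWEET12*, *STP12*, *CWINV1*, *BFRUCT4*, *SUS3*, *SUC6*, *SUC8*, *SUC9*) were picked for naming once their values were known. So were the phloem markers *SEOR1*, *SEOR2*, *AHA3*, *OPS* and *SULTR1;3* and the mesophyll markers. Members, lists and tests were chosen with earlier results of these data known. The number of arrays limits the precision. RNA-seq and PCR data of the paper were not used here.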

Additional observations from a re-analysis of the deposited data

How the results depend on the processing

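limma without the block called 0 probes with 1185 at an unadjusted p under 0.05. It also called 0 under each other normalization, background correction and filter, with the slide as a block and with any 1 array omitted. Student's t-test, which the paper used with no adjustment named, called 0 probes after Benjamini-Hochberg adjustment here. By that t-test 1366 probes had an unadjusted p under 0.05. Once replicate number was blocked, 1282 probes were called, 380 higher and 902 lower in SL. Blocked fits under other normalizations were added after seeing the data. These called 559 with the processed signal scaled to the 75th percentile, 47 with normexp scaled to the 75th percentile, 1076 with quantile normalization by slide, 1369 with an offset of 0 and 685 with the series matrix values. Blocked fits without 1 pair called 135 (replicate 1 out), 0 (replicate 2 out) and 2459 (replicate 3 out). The replicate term was called at 12548 probes and at 7919 with normexp scaled to the 75th percentile. Of the sugar lists, 2 genes were called with the block and 0 without it. With the block, 1 was called with the processed signal or with normexp scaled to the 75th percentile and with quantile normalization by slide. An offset of 0 gave 3, and omitting pair 1, 2 or 3 gave 1, 0 and 7. The cause was not tested.

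The *SUC1* difference of 1.00 (log2) was 1.00 to 1.09 over 5 other normalizations, 0.87 to 1.08 with 1 array left out and 0.81 to 1.12 with 1 pair left out. Over the same 14 settings the sign turned at 3 of the other 9 probes, the brightest of *SUC2* (to -0.05 at the lowest) and both of *SUC3* (to -0.07 and -0.15), always with an array or a pair left out. The number of genes higher in SL in all pairs was 4 to 6, against the 5 counted. At the signal level of *SUC5*, arrays of this kind give no measured difference.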
